A study of Homo sapiens with 6 samples.

Results

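The genes described here encode the machinery that moves newly made proteins into the endoplasmic reticulum (ER), trims and glycosylates them, folds them and carries them to and from the Golgi. They are the 46 gene symbols listed for ER translocation, signal peptidase, oligosaccharyl transferase, the COPII and COPI vesicle coats, disulfide isomerases and oxidases, and the lectin chaperones. All 46 were found among the 54259 symbols of the count table, and all 46 had enough counts to be tested, among 15277 tested genes in all. The counts came from RNA sequencing of MDA-MB-231 cells, an established human breast cancer line, in 2 groups of 3 libraries. The shBry libraries were made from cells with a short hairpin RNA against brachyury, and the shNC libraries from cells with a control hairpin. The sources used here name no drug, no time point, no clone and no hairpin sequence, and they do not say that the replicates came from separate cultures, so the p-values measure the spread between these libraries, which may be technical.

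Each library held between 19319411 and 22985371 counts. Brachyury, listed as T, had 0 counts in every library of both groups, which allows up to 0.131 to 0.155 CPM (counts scaled to library size) at a floor of 3 counts, for counting error only, so the knockdown could not be checked in these data. The deposited design text calls the RNA pericardial and the series title names non-small cell lung cancer, while the sample labels name MDA-MB-231. Of 6 genes taken as high in this line, VIM had 3032 to 3982 CPM over the 6 libraries. CAV1 was called lower in shBry (log2 fold change -1.11). VIM (-0.27), CD44 (0.34), AXL (0.33), LGALS1 (0.24) and ANXA1 (0.05) were not called. Of 7 genes taken as low in this line, the estrogen and progesterone receptor genes ESR1 and PGR had at most 1 count in any library. CDH1 had at most 2 counts. KRT8 and KRT18 were not low (212 to 922 CPM). KRT8 and ERBB3 were called lower in shBry (log2 fold changes -1.90 and -1.33), EPCAM was called higher (1.47) and KRT18 was not called (-0.45). The cardiac genes MYH6 and MYH7 and the leukocyte genes PTPRC and TYROBP had 0 counts throughout, while CD68 had 371 to 433 CPM and the mesothelial gene MSLN 27.6 to 49.2 CPM. The mesothelial gene CALB2 had 11.1 CPM in shNC replicate 3 against 0.59 to 1.375 CPM in the other libraries, and was called lower in shBry (log2 fold change -2.52, adjusted p = 0.00727). The part of these genes in the results was not tested. In a comparison of replicates the chi-square statistic was 4.945 to 16.7 times its degrees of freedom, so no library was a copy of another. In bulk RNA, fewer cells of a kind and less RNA in each cell cannot be told apart.

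Proteins that leave the cell, and those of most cell membranes, enter the ER through the Sec61 channel while they are being made. Signal peptidase removes the signal sequence, oligosaccharyl transferase attaches a preassembled sugar chain to asparagine, and calnexin and calreticulin hold the glycoprotein while disulfide isomerases form its disulfide bonds. Folded cargo leaves in vesicles coated with COPII, and COPI vesicles carry escaped ER proteins and receptors back. Secreting cells and cells under ER stress are known to raise many of these genes through the unfolded protein response.

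Of the 46 genes, 9 rose in shBry, 1 fell and 36 were not called. A gene was called at a Benjamini-Hochberg adjusted p below 0.05 over all tested genes and a fold change above 1.5 in the edgeR quasi-likelihood fit, and all fold changes are shBry relative to shNC. The genes that rose were SEC63, SSR4, SEC24A, SEC24B, SEC24D, COPB1, ARCN1, ERO1B and CANX, and the one that fell was CALR. The 10 called genes were 21.7% of the 46, below the 32.4% called over all tested genes. The 9 that rose were 19.6% of the 46, near the 17.1% of all tested genes that were called higher. The 1 that fell was 2.17%, against 15.2% of all tested genes. Without the fold change limit, 22 of the 46 had an adjusted p below 0.05 (47.8%, against 53.3% of all tested genes), of which 19 were higher and 3 lower, where 28% and 25.3% of all tested genes were higher and lower.

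Changes of the 46 genes were mostly small. Their median absolute log2 fold change was 0.20, against 0.42 over all tested genes. Their signed median was 0.13, against 0.03 over all tested genes, and 30 of them had a positive value. The 3 values of each group did not overlap for 26 of the 46 genes (56.5%, against 59.5% of all tested genes). Together they held 1.15% to 1.2% of all counts in the shBry libraries and 1.06% to 1.124% in the shNC libraries. The plot of changes by role shows that the called genes were spread over 6 of the 9 role groups, and that coats and complexes with a called gene also held genes that were not called.

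**Figure D1:**
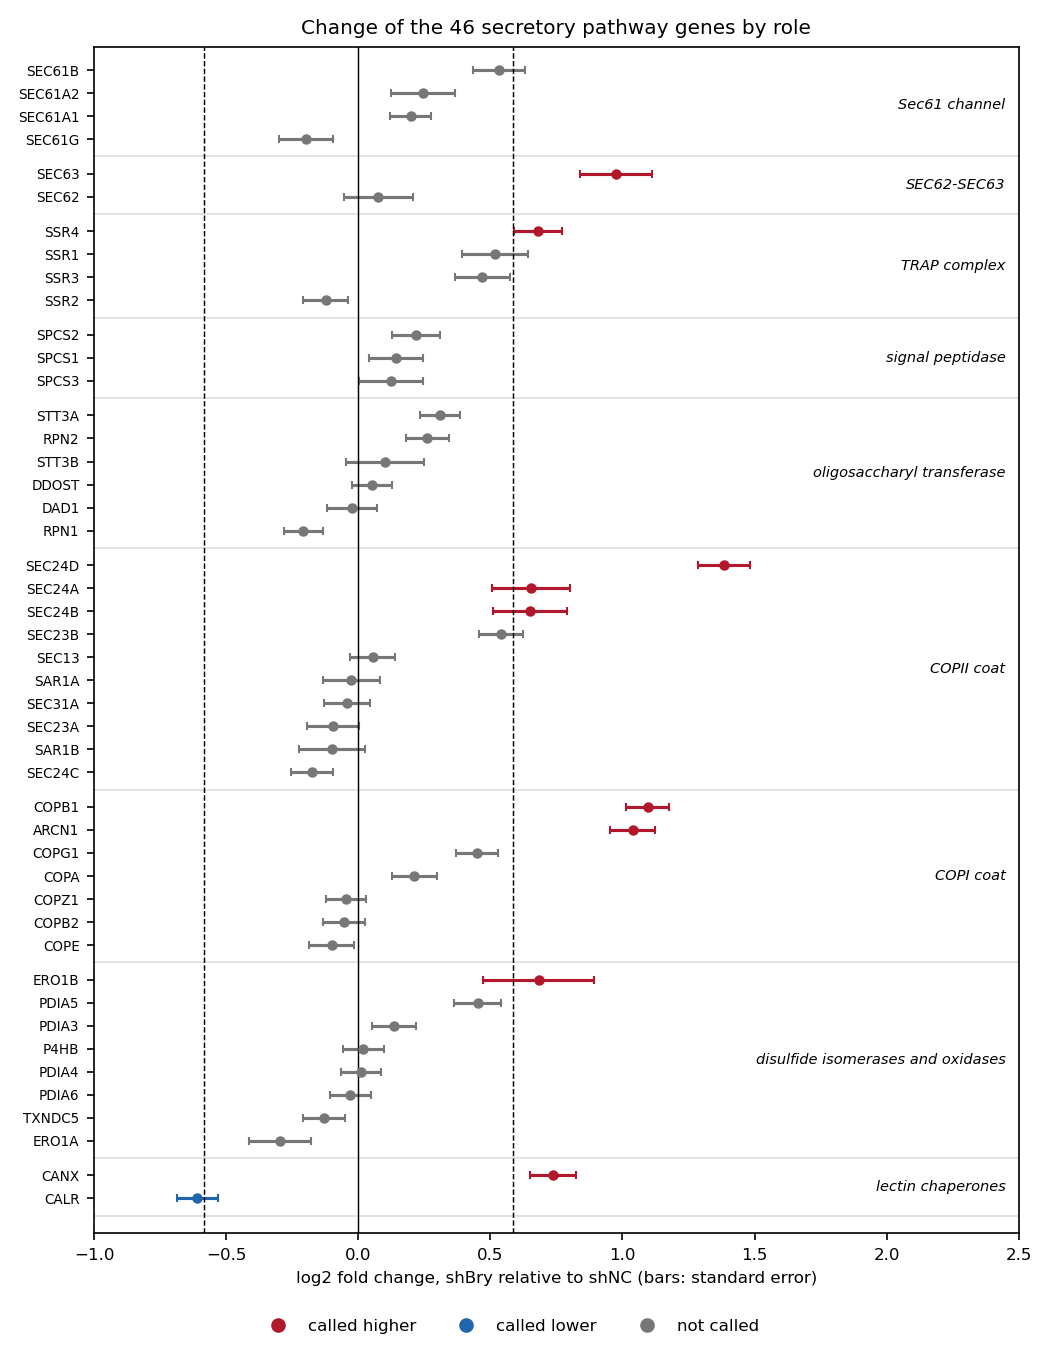
Log2 fold change of each of the 46 genes in shBry relative to shNC, grouped by role, with bars for the standard error and dashed lines at the fold change limit of 1.5. The called rises lie between 0.65 for SEC24B and 1.38 for SEC24D, and CALR is the called fall at -0.61.

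The Sec61 channel is built from an alpha subunit, which forms the pore and is encoded by SEC61A1 or SEC61A2, and the small subunits SEC61B and SEC61G. None of the 4 genes was called. SEC61B came nearest, with 55.4, 53.3 and 50.9 CPM in shNC replicates 1, 2 and 3 and 86.5, 68.6 and 76.0 CPM in the shBry replicates (CPM are TMM-normalized throughout). The shBry values all lay above the shNC values, and the change was 1.45-fold (log2 fold change 0.53, standard error 0.10, adjusted p = 0.000394), just under the fold change limit. Without shBry replicate 2 the log2 fold change was 0.59 and SEC61B was called. SEC61A1 had 572, 532 and 524 CPM in shNC and 643, 594 and 630 CPM in shBry, a log2 fold change of 0.20 (adjusted p = 0.041, up to 0.184 with single libraries left out). SEC61A2 had 14.8, 15.3 and 17.1 CPM in shNC and 19.4, 19.3 and 17.3 CPM in shBry (log2 fold change 0.25, adjusted p = 0.103). Per kilobase of merged exons, SEC61A1 stood at 115.5 CPM in shNC and SEC61A2 at 4.02 CPM, so SEC61A1 had by far the higher level of the pair. SEC61G had a log2 fold change of -0.20 (adjusted p = 0.121).

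SEC62 and SEC63 join the channel for proteins that need help to enter, and SEC63 carries the J domain that brings in the ER chaperone BiP. SEC63, on chromosome 6 of GRCh38 (107867756 to 107958189, minus strand), had 30.8, 31.1 and 42.5 CPM in shNC and 58.2, 78.7 and 68.2 CPM in shBry. The groups did not overlap, and SEC63 rose 1.97-fold (log2 fold change 0.98, standard error 0.14, adjusted p = 3.54e-05). Stretches shared with its pseudogene SEC63P1 make up 5.05% of the 50-base stretches of its transcripts. SEC62 had 32.4, 34.5 and 47.3 CPM in shNC and 39.4, 42.6 and 38.3 CPM in shBry. Its groups overlapped (log2 fold change 0.08, adjusted p = 0.649).

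The TRAP complex sits beside the channel and helps some proteins through it. It has 4 subunits, of which SSR4, the delta subunit gene on chromosome X (153793516 to 153798505, plus strand), was called. SSR4 had 71.3, 77.4 and 68.8 CPM in shNC and 126, 106 and 117 CPM in shBry. It rose 1.602-fold with no overlap (log2 fold change 0.68, standard error 0.09, adjusted p = 2.25e-05). SSR3, the gamma subunit gene, had 325, 366 and 446 CPM in shNC and 497, 538 and 540 CPM in shBry, without overlap and under the limit (1.385-fold, adjusted p = 0.0015). SSR1, the alpha subunit gene, had 92.3, 112.5 and 129 CPM in shNC and 136, 185 and 156 CPM in shBry. It was under the limit too (1.43-fold, adjusted p = 0.0032), and it passed the limit without shBry replicate 1 (log2 fold change 0.62) or without shNC replicate 3 (0.61). SSR2, the beta subunit gene, had a log2 fold change of -0.12 (adjusted p = 0.244). In all, 3 of the 4 TRAP genes had an adjusted p below 0.05 and higher values in shBry, where 28% of all tested genes did.

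The signal peptidase subunits SPCS1, SPCS2 and SPCS3 accompany the catalytic subunit. None was called, and none had an adjusted p below 0.05 in the main fit. SPCS2 had 63.5, 66.6 and 68.6 CPM in shNC and 80.5, 69.2 and 81.7 CPM in shBry, without overlap (log2 fold change 0.22, adjusted p = 0.0536). Over the alternative fits the adjusted p ran from 0.0131 to 0.201 for SPCS2 and from 0.0417 to 0.634 for SPCS1. SPCS1 had 73.0, 68.2 and 78.1 CPM in shNC and 87.5, 68.8 and 85.7 CPM in shBry, with overlapping groups. SPCS3 had a log2 fold change of 0.12. Exons of genes on the opposite strand overlap 58.1% of the exon bases of SPCS1, and whether reads were counted by strand is not given in the sources used here. Of the transcript stretches of SPCS2, 15.8% also occur in its pseudogenes.

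Oligosaccharyl transferase uses STT3A as its catalytic subunit at the channel and STT3B for sites that were missed. None of its 6 listed genes was called. STT3A had 276, 251 and 255 CPM in shNC and 322, 315 and 331 CPM in shBry. These values did not overlap, and the difference was 1.24-fold (log2 fold change 0.31, standard error 0.08, adjusted p = 0.00341). RPN2, which encodes ribophorin II, had 433, 388 and 414 CPM in shNC and 523, 457 and 501 CPM in shBry (log2 fold change 0.26, adjusted p = 0.0142). RPN1, which encodes ribophorin I, was on the other side, with 515, 515 and 487 CPM in shNC and 445, 415 and 452 CPM in shBry (log2 fold change -0.21, adjusted p = 0.0312). Neither ribophorin gene overlapped between groups. With single libraries left out the adjusted p of RPN2 reached 0.103 and that of RPN1 0.0734. STT3B had 85.0, 91.3 and 118 CPM in shNC and 83.0, 130.5 and 102 CPM in shBry, so its groups overlapped (adjusted p = 0.585). DDOST and DAD1, for further subunits, had log2 fold changes of 0.05 and -0.02, and a gene on the same strand overlaps 15.7% of the exon bases of DDOST.

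COPII coats form when the GTPase SAR1 recruits the inner layer of SEC23 and SEC24, which binds cargo, and then the outer cage of SEC13 and SEC31. Of the 10 COPII genes, SEC24A, SEC24B and SEC24D rose (30%, against 17.1% of all tested genes) and 7 were not called. SEC24D, on chromosome 4 (118722823 to 118838683, minus strand), showed the largest change of the 46 genes. It had 31.1, 25.3 and 31.0 CPM in shNC and 76.1, 76.3 and 75.9 CPM in shBry. The 3 shBry values were nearly equal and far above the shNC values, a 2.61-fold rise (log2 fold change 1.38, standard error 0.10, adjusted p = 5.6e-08). No other gene overlaps its exons, and it shares no 50-base stretch with other transcripts.

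SEC24A and SEC24B, a closely related pair of cargo-binding subunits, rose near the fold change limit. SEC24A had 16.9, 15.2 and 21.3 CPM in shNC and 24.2, 32.5 and 27.2 CPM in shBry (1.57-fold, log2 fold change 0.65, standard error 0.15, adjusted p = 0.00182). SEC24B had 15.2, 21.1 and 18.9 CPM in shNC and 24.98, 29.8 and 31.65 CPM in shBry (1.57-fold, log2 fold change 0.65, standard error 0.14, adjusted p = 0.00128). Neither gene overlapped between groups, but both calls rested on single libraries. The log2 fold change of SEC24A was 0.52 without shBry replicate 2 and 0.54 without shNC replicate 2, and that of SEC24B was 0.58 without shBry replicate 3 and 0.52 without shNC replicate 1, each under the limit. SEC24C was not called, with 209, 191 and 194 CPM in shNC and 184, 177 and 165 CPM in shBry (log2 fold change -0.17, adjusted p = 0.0796). A gene on the opposite strand overlaps 42.9% of its exon bases.

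Neither SEC23 gene was called. SEC23B had 104, 102.5 and 115 CPM in shNC and 164, 146.5 and 158 CPM in shBry, without overlap and just under the limit (1.45-fold, log2 fold change 0.54, adjusted p = 8.65e-05). SEC23A had 77.8, 74.8 and 89.6 CPM in shNC and 67.8, 80.25 and 78.5 CPM in shBry, with overlap (log2 fold change -0.10, adjusted p = 0.429). The outer cage genes SEC13 and SEC31A had log2 fold changes of 0.05 and -0.04. The GTPase genes overlapped between groups as well. SAR1A had 83.8, 89.7 and 99.5 CPM in shNC and 76.9, 87.5 and 103 CPM in shBry, and SAR1B had 26.7, 29.7 and 37.4 CPM in shNC and 27.8, 30.6 and 29.04 CPM in shBry.

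**Figure D2:**
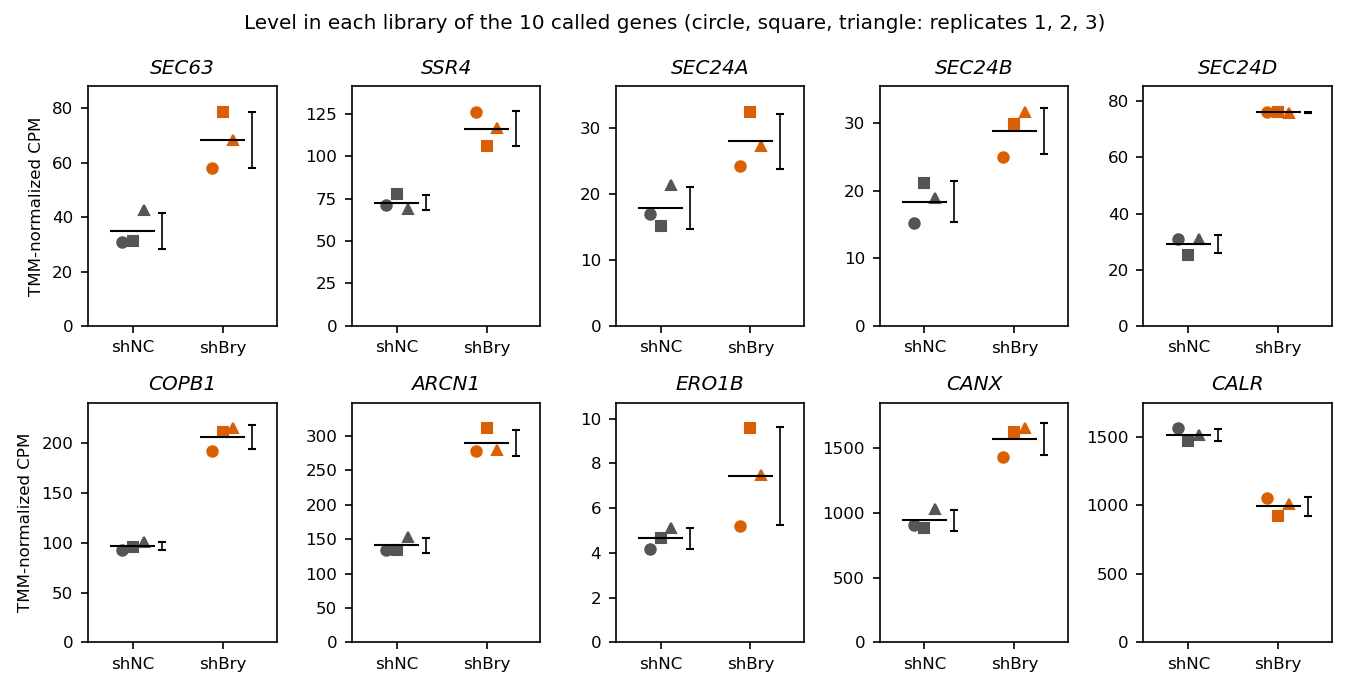
TMM-normalized CPM of the 10 called genes in each library, with a line for the group mean and a bar for the SD (n = 3 per group). In every panel the shBry points lie on one side of the shNC points, most closely for ERO1B, where shBry replicate 1 at 5.22 CPM lies next to shNC replicate 3 at 5.11 CPM.

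The COPI coat is one complex of 7 subunits, so its genes can be set side by side. COPB1, which encodes beta-COP on chromosome 11 (14443440 to 14500027, minus strand), had 93.0, 95.3 and 100.8 CPM in shNC and 192, 211 and 215 CPM in shBry. It rose 2.14-fold (log2 fold change 1.10, standard error 0.08, adjusted p = 7.56e-08). ARCN1, which encodes delta-COP further along chromosome 11 (118572390 to 118603033, plus strand), had 134.5, 134.7 and 153 CPM in shNC and 277, 311 and 280 CPM in shBry. It rose 2.06-fold (log2 fold change 1.04, standard error 0.09, adjusted p = 2.06e-07). The groups of both genes lay far apart, and beta-COP and delta-COP belong to the same cargo-binding part of the coat, together with gamma-COP and zeta-COP.

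The other COPI genes changed less. COPG1, for gamma-COP, had 223.5, 218 and 197 CPM in shNC and 305, 290 and 277.5 CPM in shBry, without overlap and under the limit (1.365-fold, log2 fold change 0.45, adjusted p = 0.000313). COPA, for alpha-COP, had a log2 fold change of 0.21 (adjusted p = 0.0481, up to 0.32 with single libraries left out). COPB2 for beta-prime-COP (log2 fold change -0.05, adjusted p = 0.599), COPE for epsilon-COP (-0.10, adjusted p = 0.338) and COPZ1 for zeta-COP (-0.05, adjusted p = 0.633) overlapped between groups. Per kilobase of merged exons, ARCN1 moved from 33.7 to 69.3 CPM and COPB1 from 18.8 to 40.1 CPM, while COPE and COPZ1 stood at 65.7 and 65.55 CPM in shNC. Another gene on the same strand overlaps 7.93% of the exon bases of COPB1 and 9.15% of those of COPE.

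Summed over a role group, the COPI genes stood apart most cleanly. They held 1225 ± 2.06 CPM in shNC and 1560 ± 11.6 CPM in shBry (SD, n = 3), or 127% of the shNC mean. That rise came mostly through ARCN1, COPB1 and COPG1, while COPB2, COPE and COPZ1 had slightly negative log2 fold changes. In shNC each single COPI gene had a larger SD than the sum, from 4.01 CPM for COPB1 to 15.2 CPM for COPE. Deviations of single genes thus offset each other in the sum. The group was singled out after the sums were seen. The TRAP genes reached 123.5% of the shNC mean, and the Sec61 channel genes 116%. SEC62 and SEC63 together reached 149%, through SEC63. The COPII genes reached 110%, and the libraries of these 5 groups did not overlap. In the plot of summed levels, signal peptidase, oligosaccharyl transferase, the disulfide genes and the lectin chaperones overlapped between groups, at 102% to 112% of the shNC mean. A sum is led by its most abundant genes and its change by the genes that moved most in CPM. These sums were given no test.

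**Figure D3:**
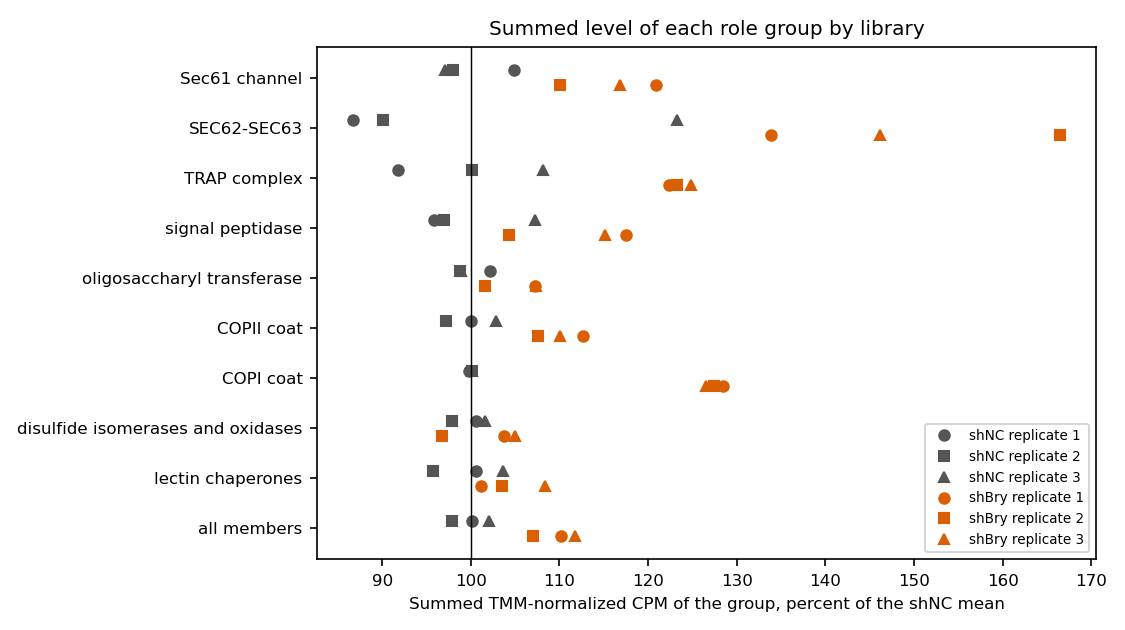
Summed TMM-normalized CPM of each role group in each library, as a percent of the mean of the 3 shNC libraries. The shBry libraries lie at 126.5% to 128.4% for the COPI coat and at 96.8% to 105% for the disulfide isomerases and oxidases.

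Of the 6 disulfide isomerase genes, none was called. P4HB, the classical protein disulfide isomerase, had 1022, 981 and 950 CPM in shNC and 1064, 961 and 968 CPM in shBry (log2 fold change 0.02, adjusted p = 0.849). PDIA3, the partner of calnexin and calreticulin, and TXNDC5 had log2 fold changes of 0.14 and -0.13, with overlapping groups. For both genes other features share sequence, with 15.3% of the transcript stretches of PDIA3 found in its pseudogenes and 60.25% of those of TXNDC5 found in a readthrough transcript. PDIA4 and PDIA6 had 0.01 and -0.03. The sign of P4HB and PDIA4 turned with the scaling of the libraries.

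PDIA5 came nearest to the limit among them. It had 53.5, 56.5 and 51.8 CPM in shNC and 76.8, 67.7 and 76.9 CPM in shBry, with no overlap (1.37-fold, log2 fold change 0.45, standard error 0.09, adjusted p = 0.000696). Exons of SEC22A, on the same strand, overlap 14.3% of its exon bases. The oxidases that keep these isomerases active are encoded by ERO1A and ERO1B. ERO1B had 4.17, 4.68 and 5.11 CPM in shNC and 5.22, 9.57 and 7.49 CPM in shBry. It rose 1.605-fold (log2 fold change 0.68, standard error 0.21, adjusted p = 0.014). Per kilobase of merged exons it had the lowest level of the 46 genes in shNC, at 0.868 CPM, and the spread among the shBry libraries was wide. The call was lost without shBry replicate 2 (log2 fold change 0.45, adjusted p = 0.0682) and without shNC replicate 1 (0.61, adjusted p = 0.0594). ERO1A was on the other side, with 48.4, 51.6 and 67.1 CPM in shNC and 42.9, 45.6 and 47.5 CPM in shBry (log2 fold change -0.30, adjusted p = 0.0458, up to 0.159 with single libraries left out).

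Calnexin and calreticulin bind the same sugar chain on folding glycoproteins, calnexin from the membrane and calreticulin from the ER lumen, and their genes changed in opposite directions. CANX, on chromosome 5 (179678628 to 179730925, plus strand), had 911, 882 and 1035 CPM in shNC and 1431, 1626 and 1656 CPM in shBry. It rose 1.67-fold (log2 fold change 0.74, standard error 0.09, adjusted p = 8.57e-06). CALR, on chromosome 19 (12938578 to 12944489, plus strand), had 1563, 1473 and 1511 CPM in shNC and 1053, 920 and 1009 CPM in shBry. Its log2 fold change was -0.61 (standard error 0.08, adjusted p = 1.77e-05), so that shBry held 0.656 of the shNC level. The groups of neither gene overlapped.

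The fall of CALR lay close to the fold change limit, and without shBry replicate 2 its log2 fold change was -0.57, under the limit, with a smaller adjusted p of 2.77e-06. The ratio of CANX to CALR in CPM was 0.583, 0.599 and 0.685 in shNC and 1.36, 1.77 and 1.64 in shBry. Since this pair was singled out after its values were seen, the ratio was given no test. Per kilobase of merged exons, CANX moved from 151 to 252 CPM and CALR from 559 to 366 CPM, so CALR remained the higher of the pair on that scale. Their sum overlapped between groups, at 2459 ± 96.9 CPM in shNC and 2565 ± 92.1 CPM in shBry (SD, n = 3).

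The promoters of these genes were searched because calnexin, calreticulin and several isomerases are textbook targets of the unfolded protein response. RefSeq windows on GRCh38.p14, from 250 bases before to 50 bases after a start site, were at hand for 41 of the 46 genes, with 58 windows in all. The ER stress response element (ERSE), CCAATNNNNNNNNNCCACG on either strand, was found in the windows of 4 of the 41 genes (9.76%), against 25 of 27305 symbols with windows (0.0916%). These symbols were not limited to tested genes, whereas all 41 genes were tested. The shares for each element are thus set against an unlike set, and promoter base content was not matched. The genes searched also included known targets of this response, so a high share among them is not an independent result. The 4 genes were CANX, which rose, CALR, which fell, ERO1B, which rose, and PDIA6, which was not called. The matches are shown with up to 8 flanking bases in the direction of the gene, with the element in capitals. Those of CALR and ERO1B are in the reverse orientation to the gene.

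CANX (chr5:179698778-179698796, plus strand): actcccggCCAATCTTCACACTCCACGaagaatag
CALR (chr19:12938384-12938402, plus strand): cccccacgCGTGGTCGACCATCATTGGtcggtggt
ERO1B (chr1:236282183-236282201, minus strand): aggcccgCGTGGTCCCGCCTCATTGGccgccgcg
PDIA6 (chr2:10812853-10812871, minus strand): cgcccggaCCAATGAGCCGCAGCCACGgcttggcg

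For CANX and CALR, which carry the opposite changes, the 250 bases before the start site are printed in full, plus strand, with the element in capitals. The CANX window is that of the last of 4 start sites in the table, and 206 bases lie between the CALR element and its start site. The window of the first CANX start site holds no such element, and in that of the second the element ends 10 bases past the start site. PDIA6 has 2 windows, of which only 1 holds the element.

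CANX (chr5:179698717-179698966): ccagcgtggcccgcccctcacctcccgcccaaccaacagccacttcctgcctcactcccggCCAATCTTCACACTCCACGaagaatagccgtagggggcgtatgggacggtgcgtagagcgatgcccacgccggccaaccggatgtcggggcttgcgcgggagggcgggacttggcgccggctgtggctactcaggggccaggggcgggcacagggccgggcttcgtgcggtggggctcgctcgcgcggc
CALR (chr19:12938359-12938608): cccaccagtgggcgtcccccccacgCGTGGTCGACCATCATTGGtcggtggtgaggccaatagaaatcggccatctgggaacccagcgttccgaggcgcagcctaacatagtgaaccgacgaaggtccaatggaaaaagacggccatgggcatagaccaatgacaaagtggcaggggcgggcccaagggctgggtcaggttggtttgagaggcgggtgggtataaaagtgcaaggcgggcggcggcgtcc

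The core of the unfolded protein response element, TGACGTG on either strand, was found for 12 of the 41 genes (29.3%), against 654 of the 27305 symbols (2.4%). Its first bases are also those of the cAMP response element, so the letters do not name one factor. Of the 12 genes, COPB1, SEC24A and SSR4 rose and 9 were not called, namely COPA, COPB2, COPE, SEC13, SEC23A, SEC61A1, SEC62, SSR3 and TXNDC5. The matches of the coat genes are shown because COPB1 and SEC24A rose while the other 5 coat genes with the same core were not called. The core is in capitals, reading in the direction of the gene, and COPB2 has 2 matches.

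COPB1 (chr11:14499852-14499858, minus strand): cccccttcCACGTCAgccaagga
COPA (chr1:160343239-160343245, minus strand): agggtcgcTGACGTGgaggcgtc
COPB2 (chr3:139389836-139389842, minus strand): agcggcacCACGTCAcggccctt
COPB2 (chr3:139389643-139389649, minus strand): ggaagttcCACGTCAgtcagtct
COPE (chr19:18919385-18919391, minus strand): cttccggcTGACGTGtctttcag
SEC13 (chr3:10321249-10321255, minus strand): tggtctcgCACGTCActggagga
SEC23A (chr14:39103233-39103239, minus strand): cctcctctTGACGTGgcagaggc
SEC24A (chr5:134648606-134648612, plus strand): agagtcggTGACGTGgcggcgag

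The second ER stress element, ATTGGNCCACG, and a C/EBP-ATF element, TGATGNAAT, were found in none of the 41 genes, where 0.0696% and 1.22% of the symbols hold them. Of the 8 genes that rose and had a window, 2 held the ER stress response element and 3 the TGACGTG core. ARCN1, SEC24B and SEC63 held none of these letters in their windows, and SEC24D was not in the promoter table. A match is a description of the letters in the window and was given no test.

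Paralogs in these families can replace each other in part, so the ratio of their counts was compared within each library, where the scaling cancels. The ratio of SEC24C to SEC24D had log2 values of 2.75, 2.91 and 2.64 in shNC and 1.27, 1.22 and 1.1202 in shBry, a difference of -1.56. SEC24C held 86.2% to 88.3% of the counts of the pair in shNC and 68.5% to 70.8% in shBry. The ratio of ERO1A to ERO1B differed by -0.92 on the log2 scale, and that of SEC23A to SEC23B by -0.64, both without overlap between groups. For these 3 pairs the exact permutation test over the libraries, two-sided, gave p = 0.1, the smallest that 3 against 3 libraries allow, and 0.233 after adjustment over the 7 pairs compared. SEC61A1 to SEC61A2, SEC24A to SEC24B, SAR1A to SAR1B and STT3A to STT3B overlapped between groups, with differences of -0.05, 0.0015, 0.05 and 0.22 and exact permutation p of 0.8, 1, 0.8 and 0.5.

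**Figure D4:**
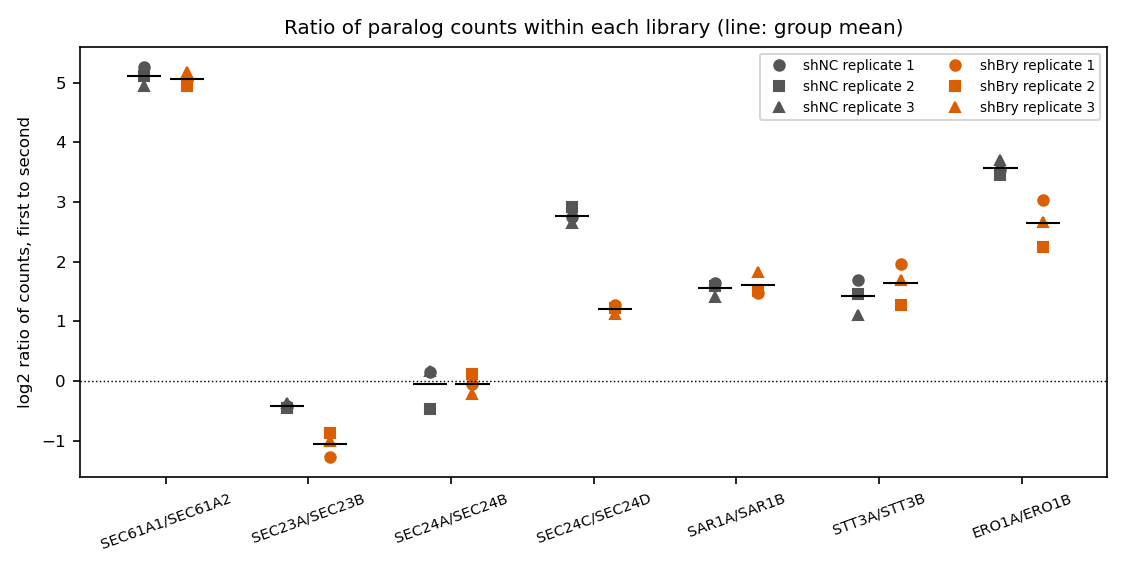
Log2 ratio of the counts of 7 paralog pairs in each library, first gene to second, with a line for the group mean. The shBry points of SEC24C/SEC24D lie at 1.1202 to 1.27, below the shNC points at 2.64 to 2.91, and those of SEC61A1/SEC61A2 lie among the shNC points.

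Of 109 other genes of the pathway, 108 were tested, and 21 rose and 5 fell in shBry. The 26 called genes were 24.1% of the tested ones, again below the 32.4% over all tested genes, with 19.4% higher and 4.63% lower against 17.1% and 15.2%. Without the fold change limit, 66 (61.1%) had an adjusted p below 0.05, 48 of them higher and 18 lower, against 53.3% of all tested genes, 28% higher and 25.3% lower. Their median log2 fold change was 0.21. MIA2 was not tested, with at most 5 counts in any library.

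Of 10 genes that target ribosomes to the translocon, 3 rose and 1 fell (30% and 10%, against 17.1% and 15.2% of all tested genes). SRPRB and SRPRA, which encode both subunits of the signal recognition particle receptor, rose from 82.3 ± 3.66 to 152 ± 19.05 CPM (log2 fold change 0.88, adjusted p = 3.4e-06) and from 185 ± 4.415 to 290 ± 5.42 CPM (SD, n = 3 libraries per group; log2 fold change 0.65, adjusted p = 4.67e-06). TRAM1, a translocon partner, rose too (log2 fold change 0.69), with overlapping groups, and SRP14, a particle subunit, was the gene that fell (-0.59). Of the catalytic subunits of signal peptidase, SEC11C rose from 12.8 to 26.5 CPM (log2 fold change 1.04, adjusted p = 7.34e-05), and SEC11A was not called (-0.17).

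None of the 6 further oligosaccharyl transferase subunits passed the limit, where 32.4% of all tested genes were called. Without the fold change limit, 4 had an adjusted p below 0.05 (66.7%, against 53.3% of all tested genes), 3 of them higher and 1 lower. KRTCAP2 had a log2 fold change of 0.58 and OST4 one of -0.54. Of 22 genes that build the sugar chain on its lipid carrier, ALG13 and ALG5 rose and DPM3, a subunit of the dolichol-phosphate mannose synthase, fell from 25.05 to 12.6 CPM (log2 fold change -0.99, adjusted p = 8.55e-06). Of these 22 genes, 9.09% were called higher and 4.55% lower, against 17.1% and 15.2% of all tested genes. ALG12 had a log2 fold change of -0.55 and was not called. Of 10 genes of the folding cycle, 2 rose (20%, against 17.1% of all tested genes). Without the fold change limit, 8 had an adjusted p below 0.05 (80%, against 53.3%), 6 of them higher and 2 lower. The 2 lower genes were MOGS (log2 fold change -0.29, adjusted p = 0.00902) and PRKCSH, for the other subunit of glucosidase II (-0.22, adjusted p = 0.0204). GANAB, the catalytic subunit of glucosidase II, had a log2 fold change of 0.60, and it fell under the limit with every other scaling of the libraries, at 0.57 to 0.58. EDEM3, which helps send misfolded glycoproteins to degradation, had 0.77, and 0.57 without shBry replicate 2.

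Around the coats, 14 COPII assembly genes and cargo receptors were tested, of which LMAN1 rose (log2 fold change 0.61) and SEC31B fell (-1.15, adjusted p = 3.95e-05). The called share was 7.14% in each direction, against 17.1% higher and 15.2% lower over all tested genes. ERGIC1, a cargo receptor gene, had -0.47 and was not called. Of 21 COPI assembly genes and cargo receptors, 3 rose and 1 fell (14.3% and 4.76%, against 17.1% and 15.2% of all tested genes). ARFGAP3, which switches off the coat's GTPase, rose from 98.6 to 190 CPM (log2 fold change 0.95, adjusted p = 2.41e-07), next to the p24 cargo receptor genes TMED4 (0.67, adjusted p = 7.24e-06) and TMED5 (0.67), while ARF3 fell (-0.62). The KDEL receptor genes KDELR1, KDELR2 and KDELR3, which return ER proteins, had -0.09, 0.03 and -0.16 and were not called.

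Among the other thioredoxin-fold proteins, 3 of 12 rose and 1 fell (25% and 8.33%, against 17.1% and 15.2% of all tested genes). DNAJC10, an ER reductase, had a log2 fold change of 0.88 (adjusted p = 2.07e-05), TMX3 had 1.22 and QSOX2 had 0.60, while TMX1 fell (-0.71). QSOX2 was under the limit with every other scaling, at 0.56 to 0.58. Of 11 ER chaperones, 6 were called higher (54.5%, against 17.1% of all tested genes) and none lower, the highest share of these 9 lists. HSPA5, which encodes BiP, had a log2 fold change of 1.36 (adjusted p = 9.81e-09), and SIL1, its nucleotide exchange factor, had 0.90 (adjusted p = 1.93e-06). DNAJB9, DNAJC3, HYOU1 and DNAJB11 rose as well, by 1.65, 0.92, 0.78 and 0.67 on the log2 scale, and the groups of HYOU1 overlapped. The other 5 were not called. HSP90B1, DNAJC1 and MANF had log2 fold changes of 0.52, 0.37 and 0.27. CRELD2 (-0.16) and SDF2L1 (-0.55, adjusted p = 0.00475) went the other way. Lists of this size were described by counts, and no difference between them was tested.

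**Figure D5:**
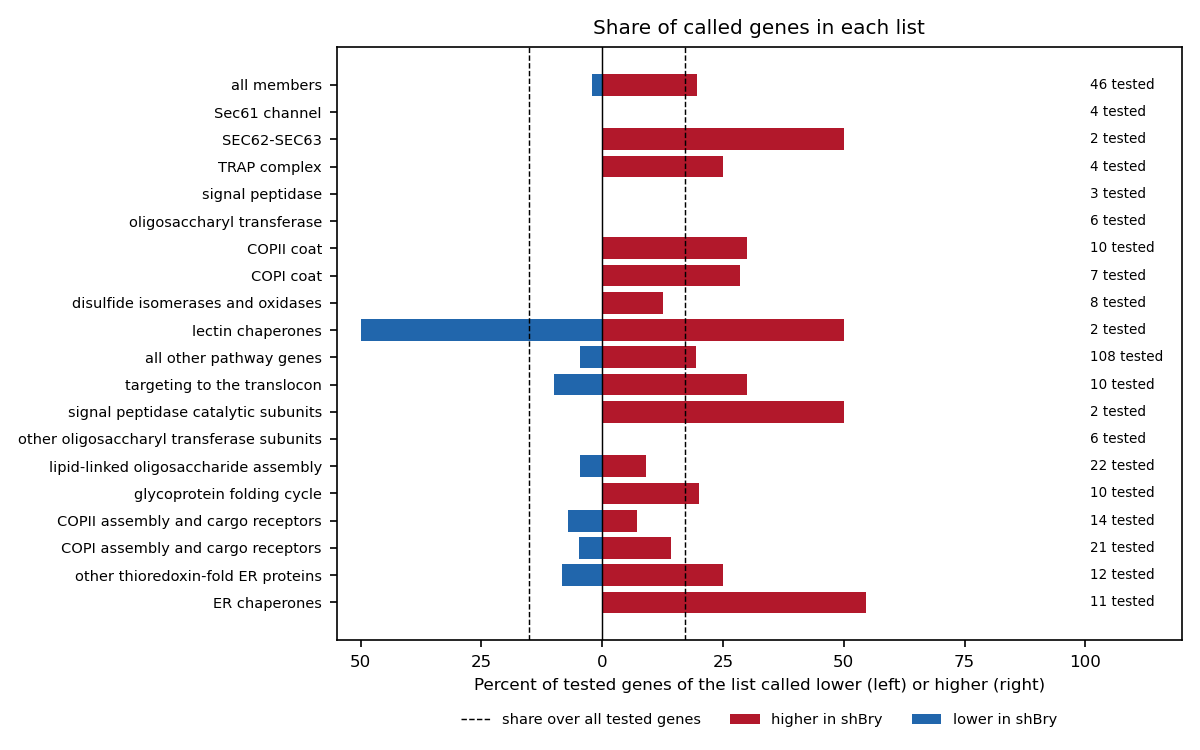
Percent of the tested genes of each list that were called lower (left) or higher (right) in shBry, with the number tested and dashed lines at the shares over all tested genes (15.2% lower, 17.1% higher). The 11 ER chaperones reach 54.5% higher, and the Sec61 channel, signal peptidase and oligosaccharyl transferase groups hold no called gene.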

How the data were processed

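RNA of MDA-MB-231 shBry and shNC cells (3 libraries each) was sequenced, and the authors deposited raw read counts per gene symbol without normalization. The submitters' processing notes name HISAT2 2.0.4, HTSeq and GRCh38. The annotation and the strand setting are not given in the sources used here. Low genes were removed with filterByExpr (10 counts), and edgeR 4.0.16 (R 4.3.3) gave TMM factors and the quasi-likelihood test. P-values were Benjamini-Hochberg adjusted over all 15277 tested genes. Standard errors are the log2 fold change divided by the square root of F.

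The members, lists and tests were chosen with earlier results of these data known. The value in each library was given for called genes (up to 4 a role group), for the 2 genes of smallest adjusted p in groups with fewer than 2 called, and for paralog pairs. Of the other pathway genes, the 2 of smallest adjusted p in each list were named. Other genes were named after their values were seen. Paralog ratios had 0.5 added to each count. Positions, exon overlaps and shared 50-base stretches came from GENCODE 29, and promoters from RefSeq. Protein sequences were not used here.

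Tested on simulated data (15083 genes), the fit recovered 65 of 81 genes changed 2-fold and 115 of 115 changed 4-fold, and called 10 unchanged genes. The simulation set 200 genes to change and gave every gene the same dispersion (spread between libraries) of 0.02. In the real data 4945 genes were called and the spread differed between genes, so these figures need not hold there. The alternatives were other scalings, DESeq2 1.42.0, limma-voom (limma 3.58.1), other filters and limits, a replicate block, and libraries left out.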

Additional observations from a re-analysis of the deposited data

How the results depend on the processing

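The counts of called genes among the 46 (10, of which 9 higher and 1 lower) were the same without TMM, with upper-quartile factors, DESeq2, limma-voom, either other filter, unadjusted p and a replicate block, and none of the 10 calls was lost in them. Deviations from the group means correlated at 0.183, -0.084 and -0.028 between same-numbered libraries, within the -0.22 to 0.227 of all shBry and shNC pairs. These values showed no consistent pairing by replicate number. They cannot exclude one, because deviations within a group of 3 depend on each other. The block gave the same 10 calls. A fold change limit of 2 left 3 of the 46 (3 higher, 0 lower), 5 other pathway genes and 2297 of all genes. Without a limit there were 22 (19 higher, 3 lower), 66 and 8139.

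With each library left out, between 8 and 11 of the 46 genes were called, 7 to 10 higher and 0 to 1 lower, with 22 to 32 other pathway genes and 4587 to 5025 of all genes. The median log2 fold change of the 46 lay between 0.076 (without shNC replicate 2) and 0.19 (without shNC replicate 3). Of the 10 calls, 6 (SEC63, SSR4, SEC24D, COPB1, ARCN1 and CANX) held in each of 13 fits, and no called gene reversed. Leaving out shBry replicate 2 and shNC replicate 3 together, chosen after seeing the data, called 10 of the 46, with SEC23B gained and ERO1B lost.

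Reversals were all of genes that were not called. P4HB had log2 fold changes of -0.0002 without TMM, -0.019 with upper-quartile factors, -0.0022 with DESeq2, -0.0068 without a filter and -0.016 without shBry replicate 2 and shNC replicate 3. PDIA4 had -0.010, -0.029, -0.012 and -0.016 in the first 4 of these and -0.0013 with at least 10 counts in every library. With single libraries left out, the ranges were -0.033 to 0.041 for P4HB, -0.030 to 0.030 for PDIA4, -0.033 to 0.24 for SEC62, -0.095 to 0.25 for STT3B, -0.036 to 0.10 for SEC13, -0.11 to 0.025 for DAD1, -0.15 to 0.067 for SAR1A, -0.21 to 0.0235 for SAR1B and -0.068 to 0.0028 for PDIA6. Without shBry replicate 2 and shNC replicate 3, SAR1A had 0.023 and PDIA6 0.004. The causes were not tested.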

Other observations

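Across the 15277 tested genes, the deviations of shBry replicate 2 and of shNC replicate 3 from their group means correlated at r = 0.227. This pair was picked as the largest of the correlations between a shBry and a shNC library, which ran from -0.22 to 0.227. The highest value for libraries that share a number was 0.183. Genes within one library are not independent replicates. Of the 46 genes, 10 had their highest value of each group in these libraries and 10 had their lowest. Of the 108 other pathway genes tested, the same held for 25 and 29. The share over all tested genes was not computed, so these counts cannot be read as particular to the pathway. No test was made of them. Among the 10 highest, STT3B had 130.5 CPM in shBry replicate 2 and 118 CPM in shNC replicate 3. Without both libraries SEC63 remained called, SEC23B passed the fold change limit (log2 fold change 0.60) and ERO1B was no longer called.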
